A study of Mus musculus with 12 samples.

Results

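The genes described here encode 9 proteins with a bromodomain, a fold that binds acetylated lysine: Brd1, Brd2, Brd3, Brd7, Brd8, Brd9, Brpf1, Brpf3 and Bptf. They were taken by name from the 44345 gene rows of the deposited count tables, by a rule with no threshold on values but with earlier results of these data known, and all 9 were among the 16819 genes with enough reads to test. RNA was measured in L4-L6 dorsal root ganglia, where the cell bodies of limb sensory neurons lie, 24 h after a dorsal column axotomy, a cut of their central branches in the spinal cord. All animals were C57BL/6 mice of 6 to 8 weeks with this axotomy, and no uninjured group was analysed here. The treated group was given MS275, also known as entinostat, which blocks class I histone deacetylases, at 12 mg/kg into the peritoneum, at injury and 2 h before the tissue was taken. The vehicle group was given the carrier alone (Tween80, PEG300 and DMSO) at the same times. Each group had 3 RNA libraries, each a pool of ganglia from 2 mice, and 3 ATAC-seq mice, for which 1 combined list of open regions per treatment was used. MS275 reached the whole animal and the ganglia were sequenced whole, so neurons, glia, vessels and immune cells all contributed.

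Histone acetyltransferases add acetyl groups to lysines of histone tails and deacetylases remove them. Bromodomain proteins bind the acetylated lysines and bring transcription and remodelling complexes to them. Brd2 and Brd3 belong to the BET family, whose tandem bromodomains dock on acetylated histones and which act in transcription elongation. Brd1 (also called BRPF2), Brpf1 and Brpf3 are the BRPF scaffolds, which hold an acetyltransferase of the MYST family together with ING and MEAF6 subunits. JADE proteins are alternative scaffolds, which take the place of a BRPF in some of these complexes. Bptf is the large reader subunit of the remodeller NURF. Brd7 and Brd9 are subunits of different SWI/SNF complexes, PBAF and non-canonical BAF, and Brd8 is a subunit of the NuA4/TIP60 acetyltransferase complex.

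The RNA libraries held 34992533 to 60370523 reads assigned to genes. The summed level of 13 sensory neuron markers was 24750 to 25840 CPM (reads per 1000000 after TMM scaling) in vehicle and 25690 to 28590 CPM with MS275, and 0 of the 13 passed the test. Muscle signal separated the groups: 9 skeletal muscle genes summed to 6.11 to 56.0 CPM in vehicle and 90.2 to 642 CPM with MS275, highest in MS275 replicate 1. All 9 of them rose and none was at 0 in any library. Endothelial markers summed to 97.9 to 107 CPM in vehicle and 122 to 150 CPM with MS275, where 4 of 6 rose. Of 7 satellite glia markers 2 fell and 1 rose, with sums of 3350 to 3525 CPM in vehicle and 3411 to 3774 CPM with MS275. Of 3 tested spinal cord markers 1 rose, and 3 erythroid genes summed to 142 CPM in MS275 replicate 1 and to 31.5 to 63.8 CPM in the other 5 libraries. The sum of 7 neutrophil markers was highest in MS275 replicate 1 too, at 260 CPM, while the other 5 libraries held 41.2 to 75.5 CPM, and edgeR called 0 of the 7. The part of these other cells in the results was not tested. Fits without a library and with a muscle covariate were run. As muscle signal separated the groups, the covariate fit cannot tell it apart from treatment. In bulk tissue, fewer cells of a type and less RNA per cell cannot be told apart.

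The starts of these genes lie in GC-rich sequence. RefSeq promoter windows (GRCm38.p6, the assembly of mm10, from 250 bases before to 50 after each start) matched 8 of the 9 genes with 11 starts. Their GC content ran from 58.7% to 78.7%, against a median of 52.7% over 32851 windows. The stretches printed here are the 150 bases directly before a start, 5′ to 3′ along the gene. They belong to the genes with the greatest falls in RNA (Brpf3 and Brd1), the gene with the most reads (Brd2, at its outermost start) and the gene with the smallest difference (Brd7). Capitals mark matches to the motifs searched.
Brpf3, chr17:28800976-28801125, plus strand: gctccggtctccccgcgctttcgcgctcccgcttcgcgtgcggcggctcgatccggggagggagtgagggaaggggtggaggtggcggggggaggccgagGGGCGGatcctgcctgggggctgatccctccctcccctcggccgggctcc
Brd1, chr15:88734220-88734369, minus strand: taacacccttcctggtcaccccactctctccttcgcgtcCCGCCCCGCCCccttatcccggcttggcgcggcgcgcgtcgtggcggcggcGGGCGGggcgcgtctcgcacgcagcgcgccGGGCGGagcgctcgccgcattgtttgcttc
Brd2, chr17:34122608-34122757, minus strand: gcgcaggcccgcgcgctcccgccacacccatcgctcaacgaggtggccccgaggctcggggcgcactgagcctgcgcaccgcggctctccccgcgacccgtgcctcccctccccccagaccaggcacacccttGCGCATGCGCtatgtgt
Brd7, chr8:88362173-88362322, minus strand: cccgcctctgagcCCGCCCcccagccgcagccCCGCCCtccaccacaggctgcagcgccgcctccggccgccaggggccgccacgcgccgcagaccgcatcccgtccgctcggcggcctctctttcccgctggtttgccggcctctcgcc

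Letters of 8 motifs were searched on both strands of the full windows. The GC box, spelled GGGCGG, was in 10 of the 11 windows and in at least 1 window of all 8 genes, against 35.7% of all windows. The window without it was that of the outermost Brd2 start, which instead held overlapping matches to the NRF1 motif, spelled GCATGCGC and present in 2.71% of all windows. The TATA box, searched as TATAAA, was in 0 of the 11 windows and in 13.6% of all. The CCAAT box was in 0 of the 11 and in 37.4% of all, and the cyclic AMP response element, searched as TGACGTCA, in 0 and in 1.79%. The E-box CACGTG was in the Bptf window and in 7.15% of all. The ETS motif CCGGAAG was in windows of Brd2 and Brd9 and in 8.86% of all, and the YY1 motif GCCATNTT in windows of Brd2 and Bptf and in 6.05% of all. Of the 11 windows Brd2 gave 3, and the 2 of Brd9 overlap and share their matches. The shares over all windows were not matched for GC content. A match is a string of letters and says nothing on whether a factor is bound.

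The RNA comparison set MS275 against vehicle, both after axotomy. Of the 9 genes, 6 fell with MS275 (Brpf3, Brd1, Brd3, Brd2, Bptf and Brd8), 0 rose by edgeR or DESeq2, and 3 did not pass the threshold (Brpf1, Brd9 and Brd7). Among all genes tested, 5.89% fell and 5.1% rose by the same rule, edgeR's quasi-likelihood test with Benjamini-Hochberg adjusted p under 0.05. An unadjusted p under 0.05 was reached by 8 of the 9, all lower with MS275. In 8 of the 9 genes each MS275 library lay below each vehicle library, a pattern that 17.9% of all tested genes showed. The reverse, each MS275 library above each vehicle library, held for 0 of the 9 genes and for 15.9% of all. The median log2 fold change of the 9 genes was -0.29, against 0.00203 over all tested genes. The falls were modest, from 15.1% to 35.2% for the genes that passed.

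**Figure D1:**
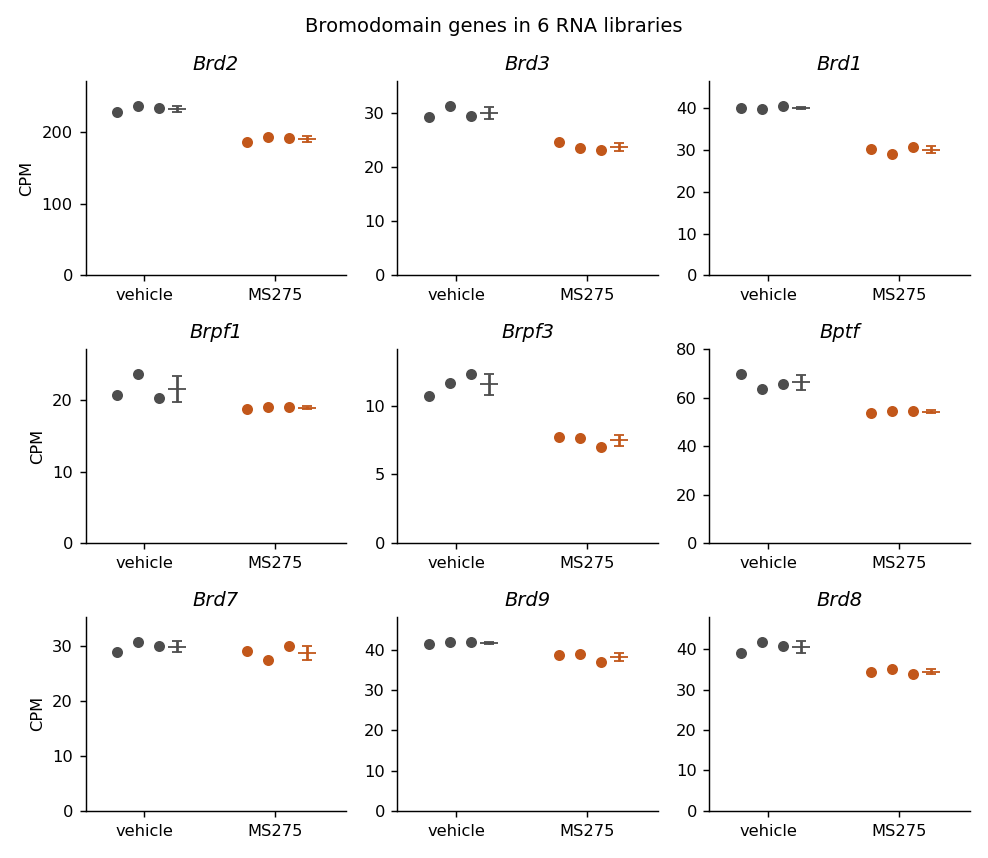
Level of each gene in each RNA library, in CPM on a linear axis that starts at 0, with vehicle libraries in grey and MS275 libraries in orange. Points are replicates 1 to 3 from left to right, and the bar beside them is the mean ± SD (n = 3). The groups are apart in every panel but that of Brd7, where the MS275 libraries at 27.4 to 29.9 CPM overlap the vehicle libraries at 28.9 to 30.8 CPM.

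Both BET genes fell. Brd2 stood at 229, 237 and 234 CPM in vehicle replicates 1, 2 and 3 and at 187, 194 and 192 CPM in MS275 replicates 1, 2 and 3. The 6 values formed tight groups with a gap between them. MS275 replicate 1, the library with the most muscle signal, was the lowest. Among the MS275 libraries it was also lowest for Brpf1 and Bptf, highest for Brd3 and Brpf3, and in the middle for the others. Brd2 fell from 233 ± 3.86 to 191 ± 3.67 CPM (SD, n = 3). In the edgeR fit that is -0.29 on the log2 scale, with SE 0.04 and adjusted p = 0.00371. Brd2 had the most reads of the 9 genes, 6641 to 14439 per library.

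Brd3 stood at 29.2, 31.2 and 29.4 CPM in vehicle and at 24.6, 23.6 and 23.1 CPM with MS275. The groups did not overlap, and Brd3 fell from 29.9 ± 1.07 to 23.7 ± 0.75 CPM on average (log2 fold change -0.33, SE 0.06, edgeR adjusted p = 0.00954). Without vehicle replicate 2, its highest library, Brd3 no longer passed (log2 fold change -0.30, edgeR adjusted p = 0.0675). The proportion of the BET pair was compared within libraries, which needs no scaling between them. The log2 ratio of Brd3 to Brd2 reads within a library was -2.96 ± 0.03 in vehicle and -3.01 ± 0.07 with MS275 (SD, n = 3). The difference of that ratio was -0.05 and the groups overlapped (exact permutation test, 2-sided p = 0.3). With 3 libraries per group this test cannot go under 0.1, so it cannot show that the proportion was unchanged. The ratio was chosen after the values had been seen.

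Of the 3 BRPF scaffolds Brpf3 and Brd1 fell and Brpf1 did not pass. Brpf3 stood at 10.7, 11.6 and 12.3 CPM in vehicle and at 7.75, 7.66 and 6.98 CPM with MS275. All 3 MS275 libraries were well under the lowest vehicle library. The mean fell by 35.2% in the fit, from 11.5 ± 0.79 to 7.47 ± 0.42 CPM (log2 fold change -0.63, SE 0.09, edgeR adjusted p = 0.00451). It is also the least sequenced of the 9, with 241 to 710 reads per library, and its 95% interval was the widest, from -0.82 to -0.43.

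Brd1 stood at 40.0, 39.8 and 40.4 CPM in vehicle and at 30.3, 29.1 and 30.7 CPM with MS275. Its libraries agreed closely within each group and the fall had the smallest p of the 9 genes, at position 57 among all tested. Brd1 fell on average from 40.1 ± 0.31 to 30.02 ± 0.86 CPM (log2 fold change -0.42, SE 0.05, edgeR adjusted p = 0.00241).

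Brpf1 stood at 20.7, 23.6 and 20.4 CPM in vehicle and at 18.7, 19.1 and 19.0 CPM with MS275. The groups did not overlap, but vehicle replicate 2 lay apart from the other vehicle libraries and the difference did not pass (log2 fold change -0.19, SE 0.07, edgeR adjusted p = 0.125). Without vehicle replicate 2 it was -0.12. Its interval, from -0.35 to -0.02, overlaps that of Brd1, from -0.53 to -0.31. Ratios within a library compared the scaffolds directly. The log2 ratio of Brpf3 to Brpf1 reads was -0.95, -1.02 and -0.73 in vehicle and -1.27, -1.32 and -1.45 with MS275, a difference of -0.45. That of Brpf3 to Brd1 differed by -0.21, and that of Brd1 to Brpf1 by -0.23. In each of these 3 ratios the groups did not overlap, which gives p = 0.1 in an exact 2-sided permutation test, the smallest that 3 against 3 allows (adjusted over the 5 ratios computed, permutation p = 0.167). The ratios were chosen after the values had been seen, and at this number of libraries they do not reach 0.05.

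Bptf, the NURF reader, stood at 69.7, 63.5 and 65.6 CPM in vehicle and at 53.6, 54.5 and 54.7 CPM with MS275. The MS275 libraries were nearly level and all under the vehicle libraries, and Bptf fell from 66.3 ± 3.15 to 54.3 ± 0.61 CPM (log2 fold change -0.29, SE 0.05, edgeR adjusted p = 0.00796). It spans 99067 bp, the longest of the 9.

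Brd8 stood at 39.0, 41.8 and 40.8 CPM in vehicle and at 34.3, 35.04 and 33.8 CPM with MS275, without overlap. It fell by 15.1%, from 40.5 ± 1.42 to 34.4 ± 0.61 CPM (log2 fold change -0.24, SE 0.05, edgeR adjusted p = 0.0185), and was the called gene nearest to the threshold. Without vehicle replicate 1, 2 or 3 or MS275 replicate 3 its edgeR adjusted p was 0.0572, 0.114, 0.0702 and 0.055, with log2 fold changes of -0.26, -0.21, -0.23 and -0.22.

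The SWI/SNF pair showed the smallest differences. Brd9 stood at 41.3, 41.8 and 41.9 CPM in vehicle and at 38.6, 39.0 and 37.0 CPM with MS275. The groups did not overlap, but the difference was small and did not pass (log2 fold change -0.12, SE 0.05, edgeR adjusted p = 0.106). It was the gene nearest to the threshold among those that did not pass. Brd7 stood at 28.9, 30.8 and 30.1 CPM in vehicle and at 29.1, 27.4 and 29.9 CPM with MS275. Its groups overlapped, and the log2 fold change of -0.06 (SE 0.06, edgeR adjusted p = 0.564) had a 95% interval from -0.18 to 0.07, which leaves out a fall as great as the estimates for the 6 called genes. The log2 ratio of Brd9 to Brd7 reads was 0.48 ± 0.04 in vehicle and 0.41 ± 0.10 with MS275 (exact permutation test, 2-sided p = 0.3). The groups overlapped, and the test, with so few libraries, cannot show that this ratio was unchanged.

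**Figure D2:**
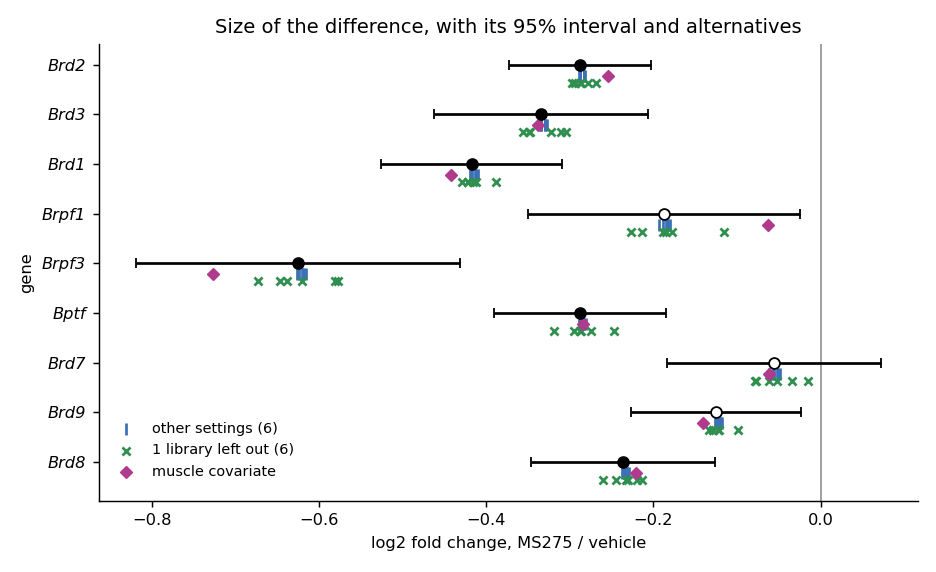
Log2 fold change of each gene, MS275 over vehicle, on the horizontal axis, with circles for the edgeR estimate (filled where the adjusted p was under 0.05) and bars for its 95% interval. Ticks under each circle show 6 other settings, crosses show fits without 1 library, and diamonds the fit with a muscle covariate. All points of all 9 genes lie below 0, only the interval of Brd7 crosses it, and Brpf3 lies farthest to the left at -0.63.

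Every one of the 9 genes kept a negative log2 fold change in each of the 13 alternative fits. The 6 calls were the same count without MS275 replicate 1, where most of the muscle signal was: Brpf3 then had a log2 fold change of -0.65, Brd1 -0.42, Brd3 -0.36, Bptf -0.28, Brd2 -0.27 and Brd8 -0.23. With the summed muscle level as a covariate 0 of the 9 passed, and 16 genes of all tested did, against 1849 without it. Muscle level separated the groups, so this fit cannot tell it apart from treatment, and SEs were larger (Brd1 0.08, against 0.05). Of those 16, 75% rose, against 46.4% of the 1849. In that fit the log2 fold changes of the 6 genes ran from -0.22 for Brd8 to -0.73 for Brpf3, which had -0.63 without it. Their edgeR adjusted p ran from 0.085 to 0.302. Brpf1 moved from -0.19 to -0.06.

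Some counts share sequence with a neighbour. No source used here gives the strand setting of the counting, so reads of overlapping genes may have been lost or shared. Brd2 overlaps H2-DMa, a gene of the class II antigen loading machinery, over 3122 bp. H2-DMa rose where Brd2 fell (15.9 ± 1.22 to 20.4 ± 1.36 CPM, log2 fold change 0.36, SE 0.08, edgeR adjusted p = 0.0243). Brd8 overlaps Kif20a, a mitotic kinesin gene, over 240 bp, which had 1.72 ± 0.17 CPM in vehicle and 1.24 ± 0.07 CPM with MS275. Brd7 overlaps the adenylyl cyclase gene Adcy7 over 72 bp. Brpf3 shares 20609 bp with the long non-coding gene Gm35883, which was not among the tested genes.

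Bromodomain genes outside the 9 were read in the same fit. Of 30, 12 fell (40%), 2 rose (6.67%) and 16 did not pass, with a median log2 fold change of -0.19. Over all genes tested 5.89% fell and 5.1% rose. The members of smallest p were Zmynd8, a reader tied to transcription repression and DNA repair, Ep300 and Crebbp, the acetyltransferases p300 and CBP, and Mll1, a histone H3 lysine 4 methyltransferase. Zmynd8 went against the majority and rose from 60.1 ± 2.72 to 81.3 ± 0.66 CPM (log2 fold change 0.44, SE 0.04, edgeR adjusted p = 0.0019). Ep300 fell by 0.70 and Crebbp by 0.51 on the log2 scale, and Mll1 by 0.39. The other gene that rose was Sp110. The 12 falls became 4 and 2 without vehicle replicate 1 or 2.

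The list for the BRPF scaffolds held 9 genes of MYST acetyltransferase complexes. Of these, 6 fell (66.7%, against 5.89% of all genes tested) and 0 rose, with a median of -0.42. Of these falls 3 were the genes of the alternative JADE scaffolds (Phf15, Phf16 and Phf17), and among the 6 genes of BRPF subunits Ing5, Kat6a and Kat6b fell while Kat7, Ing4 and Meaf6 did not pass. Ing5, a histone-binding subunit, fell from 11.2 ± 0.81 to 6.03 ± 0.50 CPM (log2 fold change -0.90, SE 0.10). On the log2 scale the acetyltransferase gene Kat6b fell by 0.41, and the JADE genes Phf15 and Phf17 fell by 0.55 and 0.69. Kat7, the acetyltransferase that binds Brd1 and Brpf3, had a log2 fold change of 0.04 (edgeR adjusted p = 0.624). Without vehicle replicate 1 or 2, 3 of the 9 fell.

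Among the partners of Brd8 a smaller share passed. Of 17 NuA4/TIP60 genes 5 fell (29.4%, against 5.89% of all genes tested) and 0 rose, with a median of -0.17. The called genes of smallest p were the scaffolds Epc2 (-0.46) and Epc1 (-0.55), the ATPase Ep400 (-0.31) and Ing3 (-0.30), which binds methylated histone H3. The catalytic gene Kat5 had a log2 fold change of 0.01 (edgeR adjusted p = 0.901). With vehicle replicate 1, 2 or 3 left out 2, 2 and 3 of the 17 fell, and with MS275 replicate 1 or 3 left out 3 did.

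Smaller shares of the next partners fell than in the lists above, 19% of SWI/SNF genes and 20% of NURF genes. Of all genes tested 5.89% fell. Of 21 SWI/SNF genes 4 fell and 0 rose, with a median of -0.07: Ss18 (-0.45) and its relative Ss18l1 (-0.34), Pbrm1 (-0.31), the bromodomain subunit of PBAF that is counted among the 30 too, and the core subunit Smarcb1 (-0.20). Leaving out vehicle replicate 1, 2 or 3 left 0, 0 and 2 falls, and leaving out MS275 replicate 3 left 2. Of 5 NURF genes Hmgxb4 fell (-0.33), and it did not pass when any vehicle library or MS275 replicate 3 was left out (edgeR adjusted p 0.0701 to 0.167). Smarca1, which encodes the ATPase SNF2L of NURF, had -0.18 (edgeR adjusted p = 0.265), and its relative Smarca5 had -0.12 (edgeR adjusted p = 0.0918).

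Among 22 tested genes of transcription elongation linked to BET proteins, 3 fell (13.6%) and 1 rose (4.55%), with a median of -0.05. Hexim2, an inhibitor of the elongation kinase P-TEFb, rose from 4.76 ± 0.21 to 7.12 ± 0.47 CPM (log2 fold change 0.58, SE 0.10, edgeR adjusted p = 0.00982). The genes that fell were Nelfa, a subunit of the pausing factor NELF (-0.35), Mepce, a capping enzyme of the 7SK RNA (-0.24), and Ccnt1, the cyclin of P-TEFb (-0.21). The kinase gene Cdk9 had 0.06 (edgeR adjusted p = 0.377). The 3 falls became 0 when vehicle replicate 1, 2 or 3 was left out and 1 without MS275 replicate 3, and the rise of Hexim2 did not pass without vehicle replicate 1 or 2. Counting each gene once, 30 of 99 tested genes in these lists fell (30.3%) and 3 rose (3.03%), against 5.89% and 5.1% of all genes tested.

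**Figure D3:**
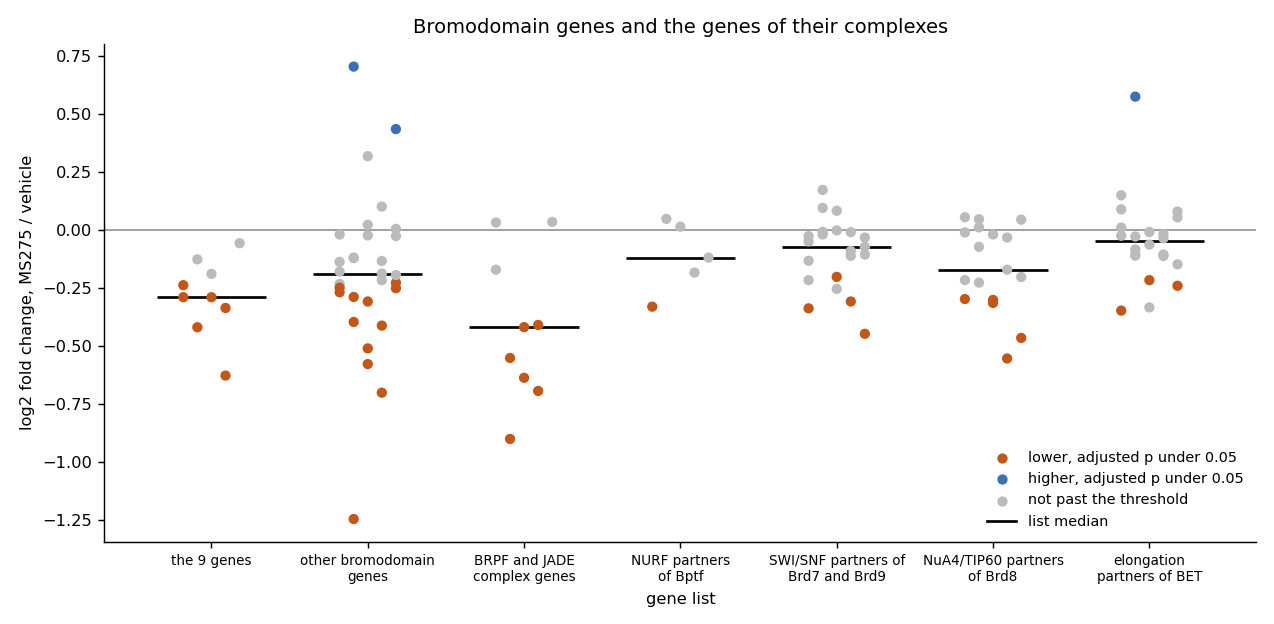
Log2 fold change, MS275 over vehicle, on the vertical axis for each tested gene (points) of 7 lists along the horizontal axis, with orange for genes that fell, blue for genes that rose and grey for those past neither threshold. Black lines are list medians, which run from -0.42 for the BRPF and JADE complex genes to -0.05 for the elongation genes, with the 9 bromodomain genes at -0.29.

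Open chromatin was compared as lists, since each treatment has 1 combined list and no replicate. All 9 genes had a region within 1000 bp of an annotated start in both lists (for Brd8, which has no start in the RefSeq table, either end of the gene). Of 15982 tested genes with coordinates 84.9% did, so this is near the background. A region covered an annotated start of the gene, or for Brd8 its end, in both lists for all 9. The coordinates are those of mm10, as deposited.

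At Brpf3 (chromosome 17, 28801126 to 28838789) the region ran from 28800481 to 28802156 in the vehicle list and from 28800469 to 28801908 in the MS275 list. It takes in all of the printed Brpf3 stretch. At Brd1 (chromosome 15, 88687034 to 88734228) 1 region of 1839 bp in the vehicle list, from 88733038 to 88734876, faced 2 regions of 540 and 784 bp in the MS275 list. The second, from 88733966 to 88734749, covers the start and the printed Brd1 stretch, so the site was open in both lists and the call was divided in the MS275 list. At Brd7 (chromosome 8, 88329894 to 88362252) the regions over the start were 1302 and 1204 bp wide.

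Brd2 (chromosome 17, 34112019 to 34122814) has 3 annotated starts, and each lay in a region of both lists. The outermost, whose sequence is printed, lay in a region with the same ends in both lists, 34122139 to 34122893. The authors' fold enrichment is a value of each peak that ranks peaks within a list. The highest value of each gene within 1000 bp of a start was taken. It was greatest at Brpf1 in both lists (7.204 in vehicle, 7.055 in MS275). It was smallest at Brd1 in vehicle (2.36) and MS275 (2.99). The median of this highest value over tested genes with a region there was 3.54 in the vehicle list and 3.61 in the MS275 list. The widest region at a start exceeded the median of tested genes at 8 of the 9 genes in each list.

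Within the gene spans the lists differed more. The vehicle list held 89 merged regions in the 9 genes and the MS275 list 51, with fewer in the MS275 list at 8 of them. Of all tested genes with coordinates 42.8% had fewer in the MS275 list, and of those with a region in either list 45.4%. The difference was uneven over the genes and greatest at Bptf, the longest, with 26 against 9. Brd1 had 18 against 16, Brpf3 15 against 10 and Brd3 9 against 4, while Brd2 had 5 against 4 and Brd9 4 against 3. Brd7 and Brd8 each had 5 against 1, and Brpf1 alone had more with MS275, 2 against 3. The MS275 total was 0.573 of the vehicle total, against 0.875 over all tested genes with coordinates. Among regions with a -log10 q of at least 5 the 9 genes held 19 and 14, a ratio of 0.737, and all tested genes 0.754. The ratios of the 9 genes and of all genes were thus close among the stronger regions and apart over all regions. Sequencing depth of the ATAC mice is unknown, and its part in the number of regions was not tested.

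**Figure D4:**
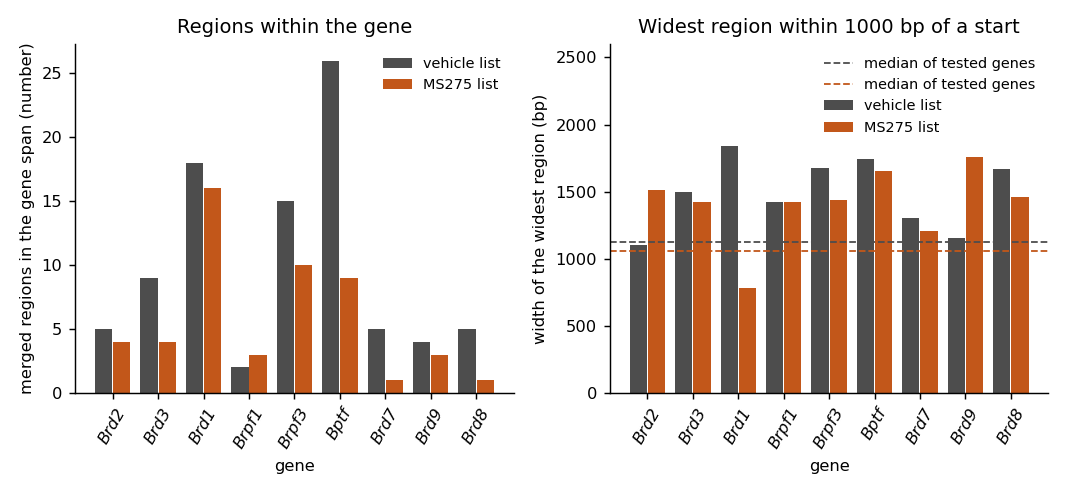
Left, number of merged open regions within each gene in the vehicle list (grey) and the MS275 list (orange), from 26 against 9 at Bptf to 2 against 3 at Brpf1. Right, width in bp of the widest region within 1000 bp of a start, with dashed lines at the median over tested genes, 1123 bp in vehicle and 1056 bp in MS275; only Brd2 in vehicle and Brd1 in MS275 lie under their line.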

How the data were processed

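The deposited RNA files hold raw read counts per gene symbol, made by the authors, and 5 rows per file that name no gene (18.89% to 20.56% of a library) were left out. The submitters' processing notes list STAR 2.7.0 and build mm10, with no role. The ATAC files deposited by the authors are 1 combined peak list per treatment, whose columns used here are fold enrichment (a ratio), -log10 q-value and summit position. A score per peak was also deposited by the authors and was not used. Replicate numbers come from the sample titles.

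The count model was edgeR 4.0.16, run under R 4.3.3 (TMM, filterByExpr, quasi-likelihood, 2-sided, Benjamini-Hochberg over 16819 genes, treatment as the term), tested on simulated data. SE is the log2 fold change over the square root of F. Intervals cover 95%. Peaks were merged within a list, checked with bedtools 2.31.1, and assigned by an overlap of 1 bp with 1000 bp around starts. Replicates within a group differed by more than sampling noise (chi-square per degree of freedom 7.23 to 54.0). With 3 libraries per group p-values rest on the spread between pools of mice.

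The 9 genes and all lists were chosen with earlier results of these data known. All 9 are named, with up to 4 called genes of smallest p per list. Cdk9, Ing4, Kat5, Kat6a, Kat7, Meaf6, Phf16, Smarca1, Smarca5 and Sp110, Cecr2 and genes overlapping the 9 were named after their values were seen. Genes most like each called gene were ranked by the root mean square difference of centred log2 CPM (prior count 2, mean log2 CPM of at least 1). Alternatives were RLE and upper-quartile scaling, no filter, DESeq2 1.42.0, limma voom 3.58.1, a replicate block, a muscle covariate, each library left out, adjusted p under 0.01, and for regions windows of 500 and 2500 bp, -log10 q of at least 5 and 50% overlap. RefSeq coordinates matched 15982 tested genes, 1049 through synonyms.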

Additional observations from a re-analysis of the deposited data

How the results depend on the processing

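The 6 falls among the 9 genes were called in the same number with RLE scaling, upper-quartile scaling, no filter beyond 1 count, DESeq2, limma voom and the replicate block, 5 were called at adjusted p under 0.01, and 4 to 6 with each library left out. With the muscle covariate 0 of the 9 fell and 16 of all genes changed, against 1849, of which 75% and 46.4% rose. Muscle level separated the groups, so that fit cannot tell it apart from treatment. All-gene calls were 350 at adjusted p under 0.01 and 261 to 2763 with a library left out. No fit turned the direction of any of the 30 named genes that were recomputed.

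The other lists were recomputed after the data had been seen. With the muscle covariate, 1 of the other bromodomain genes (Ep300) fell and 0 rose, 0 of the BRPF/JADE complex genes and of the NURF, SWI/SNF and NuA4/TIP60 partners fell, and 0 elongation genes rose or fell. SWI/SNF partners that rose numbered 1 with RLE scaling, upper-quartile scaling and DESeq2, and elongation genes that rose numbered 2 with DESeq2. With each library left out, other bromodomain genes that fell ranged from 2 to 13 and those that rose from 1 to 2. BRPF/JADE complex genes that fell ranged from 3 to 6, NURF partners from 0 to 2, SWI/SNF partners from 0 to 5 (rose 0 to 1), NuA4/TIP60 partners from 2 to 6 and elongation genes from 0 to 4 (rose 0 to 2).

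The replicate numbers are shared by the groups. Correlations of deviations were 0.02, 0.11 and -0.06 between same-numbered libraries and from -0.149 to 0.113 between the others. With 3 libraries per group these values cannot settle whether same-numbered libraries share a batch. With the replicate block 2088 genes were called, against 1849 without it, the 6 members again among them. Counts of 241 to 710 limit Brpf3, and the unknown ATAC depth limits every count of regions.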

Other observations

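Ranked by likeness of pattern over the 6 libraries, the genes closest to each of the 6 that fell are named here. Closest to Brd1 were Katnbl1, Zfp263 and Isg20l2, with root mean square differences of 0.0256 to 0.0339 in centred log2 CPM. Closest to Brd2 were Ttf1, Nr2f2 and Ubtf, of which Ttf1 and Ubtf act in transcription by RNA polymerase I, at 0.0195 to 0.0226. Closest to Brd3 were Qser1, Lemd3 and Cep57, and to Brd8 Hnrnph1, an RNA splicing factor gene, Dcaf10 and Glt8d1. Closest to Bptf were Zbtb10, Nup98, a nuclear pore gene, and Rab11fip2. Brpf3 had no such close match: Suv39h2, a histone H3 lysine 9 methyltransferase gene, Trip6 and Plk4 lay at 0.0522 to 0.0639. Of the 6, Brpf3 also had the fewest reads, 241 to 710 per library, and the greatest fall. The part of either in these larger distances was not tested. The search covered 12379 genes, and the names describe these 6 libraries only.

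Among the 9 genes themselves, Brd2 and Brd8 were the pair most alike, at 0.0355, closer than the paralogs Brd2 and Brd3 at 0.0509.

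Among the 30 other bromodomain genes, that with the greatest fall was Cecr2, a bromodomain subunit of an ISWI remodeller, named after its values were seen. It went from 2.40 ± 0.13 to 1.02 ± 0.26 CPM (SD, n = 3), or -1.24 on the log2 scale with SE 0.21 and edgeR adjusted p = 0.00948. Its libraries held 36 to 156 reads.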
